A study of Rattus norvegicus with 45 samples.

Results

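Poor performers were set against good performers among old rats fed ad libitum, using 18 of the 45 arrays of the series. The members were chosen by their labels (old, ad libitum, poor or good performance), never by a measured level. ALO_PP holds 3 poor performers (animals R5, R8 and R11) and ALO_GP holds 3 good performers (R1, R9 and R10), which is 6 of the 15 animals of the series. All 6 were male F344xBN rats from the colony of the National Institute on Aging, aged 28 months, and carried no transgene. Each animal gave 1 array for CA1, 1 for CA3 and 1 for the dentate gyrus (DG), and its code in the array descriptions links its 3 regions. Other classes are used below for comparison only: CRO_PP and CRO_GP, poor and good performers of the same age, sex and strain on restricted food (3 animals each), and ALMA, middle-aged rats of 18 months fed ad libitum (3 animals). The sources used here name neither the behavioural test nor a score for any animal, so performance is a class label and could not be related to a measured degree.

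The regions form one circuit. Granule cells of the dentate gyrus receive cortical input and send mossy fibres to the pyramidal cells of CA3, which excite one another and project through the Schaffer collaterals to the pyramidal cells of CA1. Encoding and recall of places and episodes in rodents depend on this circuit. Its neurons lie among astrocytes, oligodendrocytes, microglia and vessels, and the tissue borders the meninges and the choroid plexus, so a dissected piece holds RNA of all of these.

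Signal here is the dChip model-based expression index that the authors deposited in the table of all ad libitum arrays, on a linear scale. Differences are poor minus good on log2(signal + 16), and a difference of 1 is a doubling of signal + 16. Median signal per array ran from 151.0 to 175.2, and 61.17% to 65.54% of probe sets were called present. Median signal was lower in the poor performers in CA1 (157.5 ± 1.31 against 163.5 ± 3.19 in good, SD, n = 3 each) and in CA3 (156.5 ± 3.55 against 165.9 ± 8.15 in good). The exact permutation test gave p = 0.1 for each, the smallest that 3 animals against 3 allow. In DG the poor performers had fewer present calls (61.93% against 64.31% in good) and a higher spiked DapX control (462.8 against 364.5 in good), again with exact permutation p = 0.1 for each. The part of these differences in the results below was not tested. All 3 poor DG arrays, 1 poor CA3 array (R11) and no good array carry the suffix "a" in their codes, a mark that the labels do not explain. In DG, suffix and class cannot be told apart.

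The region labels fitted the markers. In the mean over the 6 animals, 9 of 11 CA1 pyramidal markers, 9 of 12 CA3 markers and 8 of 11 granule cell markers were highest in their own region. Some arrays stood apart. Good performer R1 differed by more than 2-fold from the median array of its region at 0.666% of probe sets in CA1, 0.607% in CA3 and 4.01% in DG. The same share was 0.988% for poor performer R5 in DG and at most 0.279% on the other 14 arrays. The CA3 array of poor performer R8 had a summed CA1 marker signal of 41432, against 27885 to 32893 on the other 5 CA3 arrays. Its summed CA3 marker signal was 27928, against 33602 to 37915. On that array 8 of 11 CA1 markers were at their highest of the 6 animals and 9 of 12 CA3 markers at their lowest. The CA1 array of R1 had a summed CA1 marker signal of 35257, against 41135.1 to 45737 on the other 5. Middle-aged CA1 arrays had 35720 to 38374. The mean log2 level of CA3 markers on the R1 array was 10.15, the same as in good R10. Where computed, results that rest on these arrays are given with and without them.

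No probe set passed the test in any region or in the mean of the 3 regions. Of 18620 probe sets tested with limma, 0 had a Benjamini-Hochberg adjusted p under 0.05 in CA1, CA3, DG and the mean (0% called in each). The smallest adjusted p was 1.00 in CA1, 0.388 in CA3, 0.499 in DG and 0.748 in the mean. At an unadjusted limma p under 0.05 there were 489 in CA1 (2.63%), 1965 in CA3 (10.6%), 1396 in DG (7.5%) and 1103 in the mean (5.92%). The lower ones in poor performers were the more numerous in CA1 (358 or 1.92% lower, 131 or 0.704% higher), in CA3 (1346 or 7.23% lower, 619 or 3.32% higher) and in the mean (873 or 4.69% lower, 230 or 1.24% higher). In DG they were near balance, with 670 lower (3.6%) and 726 higher (3.9%). In a separate fit between regions, probe sets did pass the threshold, with 1183 for CA3 minus CA1 (6.35%) and 1530 for DG minus CA1 (8.22%). That fit compared regions within the same 6 animals, not 3 animals against 3 others. Its counts therefore do not show what the class comparisons could detect. The median distance from an estimate to its 95% limit was 0.231 in CA1 and in CA3, 0.286 in DG and 0.151 in the mean. A typical gene could therefore differ by 1.17-fold in CA1 or CA3, 1.22-fold in DG or 1.11-fold in the mean and still have an interval that reaches 0.

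Since nothing passed, genes are described below by whether the 3 poor and the 3 good values overlap. Groups did not overlap for 1211 probe sets in CA1 (6.5%), 3488 in CA3 (18.7%), 2643 in DG (14.2%) and 2285 in the mean of regions (12.3%). For a probe set without a class difference, non-overlap of 3 animals and 3 in either direction has a probability of 0.1. The shares were not tested against it. Each gene is represented by its brightest probe set, which leaves 9883 genes. Among them the poor values lay wholly above the good values for 204 genes in CA1 (2.06%), 939 in CA3 (9.5%), 668 in DG (6.76%) and 540 in the mean (5.46%). They lay wholly below for 440 in CA1 (4.45%), 955 in CA3 (9.66%), 658 in DG (6.66%) and 729 in the mean (7.38%). Counts of list members below are read against these shares. No gene named below passed the test, so "higher" and "lower" describe these 6 animals.

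Genes of the immune response had lower medians in the poor performers, and those medians moved to about 0 when good performer R1 was left out. In the mean of regions the median difference was -0.31 over 20 interferon response genes, -0.27 over 11 complement genes, -0.24 over 15 genes of antigen presentation (MHC) and -0.22 over 18 microglial genes, beside -0.01 over all genes. Without R1 the same medians were -0.02, 0.06, 0.08 and 0.00, beside 0.00 over all genes. All 20 interferon genes lay below 0 with R1 and 12 of 20 without it. Poor values lay wholly below good values for 5 of 20 interferon genes, 3 of 18 microglial genes, 1 of 11 complement genes and 0 of 15 MHC genes, beside 7.38% of all genes.

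R1 was the highest of the 6 animals for most members of these lists. That held for 18 of 18 microglial genes in CA1, and in CA3 and DG for 14 of 18 each. It held for 14 of 15 MHC genes in each region, and for 14, 16 and 20 of 20 interferon genes in CA1, CA3 and DG. Over all genes R1 was the highest animal for 27% in CA1, 16.5% in CA3 and 30% in DG. The mean log2 level of the microglial list in CA1 was 9.09, 9.51 and 9.31 in poor R5, R8 and R11, and 10.20, 9.39 and 9.38 in good R1, R9 and R10. The plot of list levels by array shows that only R1 of the good performers stood above the poor performers on this list in CA1 and CA3.

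**Figure D1:**
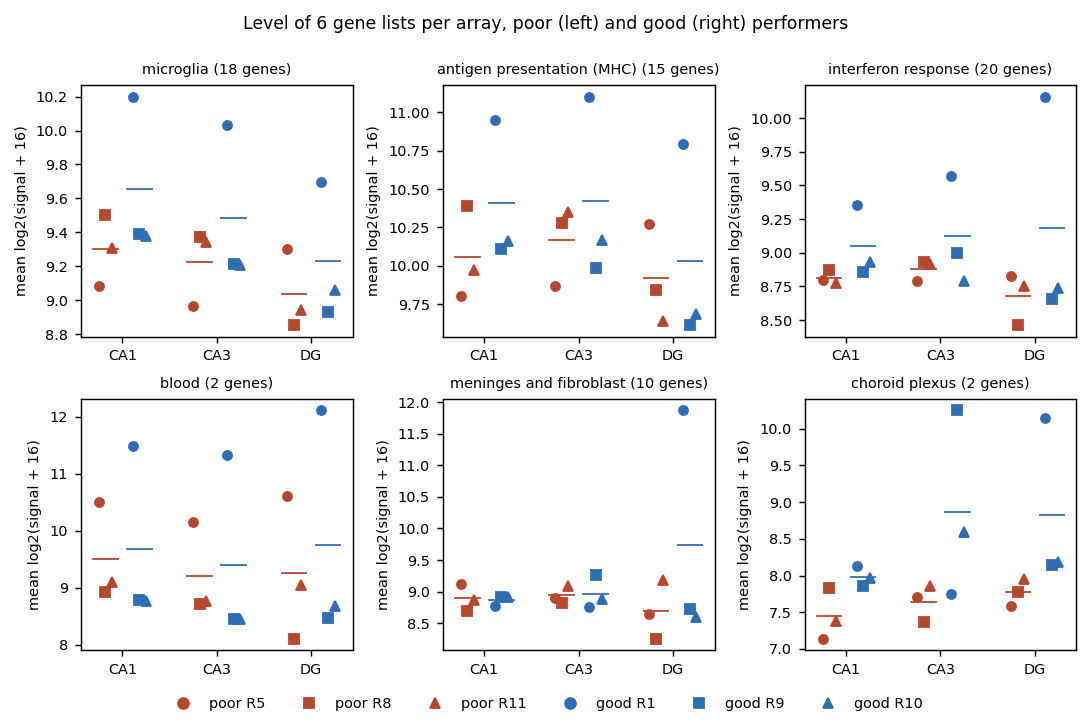
Mean log2(signal + 16) over the tested members of 6 gene lists (microglia, MHC, interferon response, blood, meninges and choroid plexus) on each of the 18 arrays, by region, with poor performers left of good performers and 1 point per animal. Good performer R1 lies above the other animals for the microglial list in CA1 (10.20 against 9.09 to 9.51) and far above them for the meningeal list in DG (11.87 against 8.25 to 9.18).

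Single genes show the same animal. C2, a serine protease precursor of the classical complement pathway, had a CA3 signal of 223, 321 and 323 in poor performers and 1870, 313 and 283 in good R1, R9 and R10. Mx1, an interferon-induced dynamin-like antiviral GTPase, had a CA1 signal of 52.4, 88.2 and 66.8 in poor performers and 448, 69.9 and 107 in good performers. Ptprc, the leukocyte phosphatase CD45, had a CA1 signal of 161, 259 and 221 in poor performers and 547, 234 and 304 in good performers. In each of the 3 genes R1 had the highest value. The poor and good ranges of C2, Mx1 and Ptprc overlapped both with R1 and without it. Gpr34, a lysophosphatidylserine receptor of microglia, was lower without resting on R1. Its mean log2 level over regions was 10.32, 10.45 and 10.24 in poor and 10.60, 10.51 and 10.51 in good performers. The difference was -0.20 ± 0.06 (SE; limma adjusted p = 0.825), and stayed between -0.26 and -0.15 whichever animal was left out.

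Irf1, Ifi44 and Bst2 are shown in sequence. They were taken from the interferon genes whose poor and good values did not overlap in the mean of regions. Their class differences below are therefore no separate result. All 3 were highest in R1 in DG, as was every tested interferon gene, and their promoters differ in the elements they hold. Irf1 is a transcription factor induced by interferons, Bst2 (tetherin) holds budding virus particles at the cell membrane, and Ifi44 is an interferon-induced protein. Bst2 was chosen after its values were seen. Each promoter below is the reference sequence from RefSeq (GRCr8), from 250 bases before to 50 bases after the gene's start, 5′ to 3′ on the gene's strand. Capitals mark matches on either strand to GAAANNGAA, a core of the interferon-stimulated response element, or to TTCNNNGAA, the gamma-activated site. Irf1 lies at chr10:38417685-38417984 on the plus strand and has 1 gamma-activated match. Bst2 lies at chr16:18254918-18255217 on the minus strand, with 2 response element matches and 1 gamma-activated match that overlap. Ifi44 lies at chr2:243303791-243304090 on the minus strand, with 2 response element matches.
Irf1: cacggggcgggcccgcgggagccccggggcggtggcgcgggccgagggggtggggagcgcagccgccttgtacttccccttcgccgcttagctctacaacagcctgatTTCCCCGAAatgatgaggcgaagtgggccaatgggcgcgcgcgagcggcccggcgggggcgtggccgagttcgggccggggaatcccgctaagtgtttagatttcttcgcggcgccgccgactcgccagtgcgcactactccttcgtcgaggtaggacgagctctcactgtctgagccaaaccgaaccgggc
Bst2: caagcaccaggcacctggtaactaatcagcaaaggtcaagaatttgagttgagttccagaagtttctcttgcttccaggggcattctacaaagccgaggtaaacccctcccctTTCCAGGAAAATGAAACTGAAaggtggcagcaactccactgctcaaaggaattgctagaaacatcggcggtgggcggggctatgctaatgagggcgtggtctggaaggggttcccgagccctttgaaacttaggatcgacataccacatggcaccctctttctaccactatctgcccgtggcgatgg
Ifi44: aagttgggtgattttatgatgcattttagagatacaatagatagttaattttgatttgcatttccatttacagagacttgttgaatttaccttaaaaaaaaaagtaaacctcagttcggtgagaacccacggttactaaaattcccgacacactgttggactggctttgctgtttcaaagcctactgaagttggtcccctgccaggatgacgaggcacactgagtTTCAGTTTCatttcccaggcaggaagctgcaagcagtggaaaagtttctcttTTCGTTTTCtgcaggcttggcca

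Of the 24 interferon genes listed, 17 had a promoter in the table, and 11 of these 17 held GAAANNGAA, beside 3251 of all 33469 promoters of that length (9.71%). TTCNNNGAA was found in 5 of 17, beside 2970 of 33469 (8.87%). A match describes the letters of the window and is not a binding site. In DG, Bst2 had signals of 283, 178 and 209.9 in poor performers and 946, 215 and 286 in good R1, R9 and R10. Irf1 in DG had 444, 339.9 and 444.5 in poor and 794, 549.9 and 474 in good performers. Ifi44 in DG had 348, 260.4 and 339.5 in poor and 752, 369.6 and 341 in good performers. R1 was highest for all 3 genes. In the mean of regions the differences were -0.56 for Bst2, -0.34 for Irf1 and -0.39 for Ifi44, and -0.12, -0.12 and -0.17 without R1. In the value table, another set of signals that the authors deposited for the same arrays, poor values lay wholly below good values in the mean for 1 of 20 interferon genes, beside 4.63% of all genes there.

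Blood and border tissue also differed by animal. Hbb, the beta chain of haemoglobin, had signals of 7725 in CA1 and 9758 in DG in good R1, and of 4942 and 5864 in poor R5. The other 4 animals ranged from 1441 to 2110.1 in CA1 and from 1120.4 to 2007 in DG. Blood RNA was thus high in 1 animal of each class, and the median of the 2 blood genes in the mean of regions was -0.29 with R1 and 0.73 without it. Meningeal genes (collagens, decorin and others) were high on the DG array of R1 only, where all 10 members were at their highest, with a summed signal of 46359.8 against 6745 to 12984 in poor performers and 8783 to 9439 in the other good performers. Their DG median difference was -1.10 with R1 and 0.10 without it. In bulk tissue, fewer cells of a type and less RNA per cell cannot be told apart. The part of blood and meninges in the immune medians was not tested. No tested member of these marker lists was at 0 on any array.

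Ttr, transthyretin, the main secreted product of the choroid plexus, varied most. Its CA3 signal was 183, 217 and 266 in poor performers and 197, 4395 and 726 in good R1, R9 and R10. Its DG signal was 166, 203 and 311 in poor performers and 5678, 587 and 491 in good performers. The extreme value was held by good R9 in CA3 and by good R1 in DG. In CA1 the summed signal of the 2 choroid plexus genes tested reached 594.53 in poor and 582.54 in good performers. In DG and in the mean of regions the Ttr values of the classes did not overlap. The mean Ttr difference was -1.74 ± 0.32 (SE, limma adjusted p = 0.825), and lay between -2.01 and -1.46 whichever animal was left out. The amount of choroid plexus kept at dissection was not recorded in the labels, and its part in this difference was not tested.

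**Figure D2:**
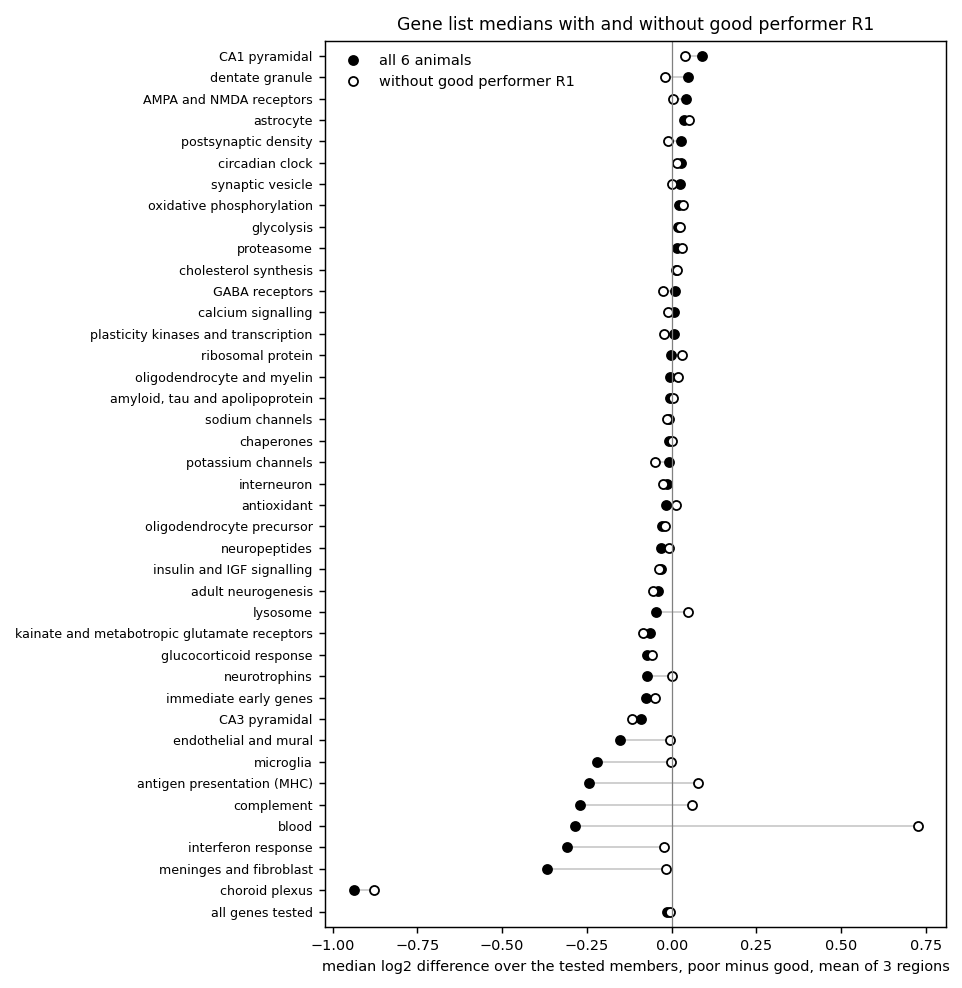
Median log2 difference, poor minus good performers, over the tested genes of each of 40 lists in the mean of the 3 regions. Filled points use all 6 animals and open points leave out good performer R1; the interferon median is -0.31 with R1 and -0.02 without it, and the meningeal median is -0.37 with R1 and -0.02 without it.

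In CA1 most of the genes of smallest p were lower in poor performers, and many of them are genes with a higher level in CA3 than in CA1. Frem3, an extracellular matrix protein of the Fras1 family, had CA1 signals of 7.68, 22.5 and 21.7 in poor performers and 132, 64.2 and 165 in good performers. Its difference was -1.99 ± 0.31 (SE, n = 3 each; limma adjusted p = 1.00), with -1.05 in the value table. The poor signals lie near the 16 added before log2, and the difference was -2.76 with 1 added and -1.14 with 64, so its size is not settled. Frem3 signals in CA3 were 414, 169.6 and 373 in poor and 313, 259.6 and 328 in good performers, so the CA1 level was low in both classes and the CA3 difference was 0.00.

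Nmb encodes neuromedin B, a bombesin-like neuropeptide. Its CA1 signals were 119, 188 and 143 in poor performers and 553, 245 and 449.7 in good performers. The difference was -1.33 ± 0.29 (limma adjusted p = 1.00), a 2.51-fold higher signal + 16 in good performers. Ucp2, an uncoupling protein of the inner mitochondrial membrane, had 1245, 1459.6 and 1379 in poor and 2893, 2009 and 2172 in good performers, a difference of -0.77. Fxyd7, a small subunit that tunes the sodium pump in brain, had 671, 909 and 902 in poor and 1921, 1138 and 1974 in good performers, a difference of -0.98. Lpl, lipoprotein lipase, had 898, 882 and 1002 in poor and 1347, 1144 and 1419.8 in good performers, a difference of -0.48. In these genes the classes did not overlap, and for Nmb, Fxyd7 and Lpl good R9 was the animal nearest the poor performers. Epn1, an endocytic adaptor, had 142, 163 and 166 in poor and 223, 291 and 248 in good performers, a difference of -0.64 that was -0.28 in the authors' table of all old arrays. Enox2 (-0.69), Atp6v0a4, a subunit of the vacuolar proton pump (-0.73), Emp3 (-0.39) and the lysosome-associated membrane protein Lamp5 (-0.38) completed the 10 lowest by the naming rule.

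The differences in the other direction were smaller. The 10 higher genes of smallest p in CA1 differed by 0.19 to 0.34. Adra2c, the alpha-2C adrenergic receptor, had 462, 443 and 488 in poor and 401, 412 and 353 in good performers, a difference of 0.25. Abat, the transaminase that degrades GABA, had 829, 845 and 815 in poor and 669, 745 and 729 in good performers, a difference of 0.21. Cadps2, which primes dense-core vesicles for release, had 4320.2, 4345 and 4238 in poor and 3232, 4022 and 3520.1 in good performers, a difference of 0.26. Poor values lay within a narrow band in all 3 genes, and the classes did not overlap.

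Levels in the middle-aged rats, which are not part of the contrast, give the usual gradient between CA3 and CA1. All 10 lower CA1 genes had a higher level in CA3 than in CA1 there, by 0.07 to 1.40 on the log2 scale, and 6 of 10 by more than 0.5. Those 6 were Frem3 (1.40), Atp6v0a4, Lpl (0.89), Enox2 (0.84), Ucp2 (0.83) and Nmb (0.76). Of the 440 genes lower without overlap in CA1, 37 (8.41%) had a CA3 level more than 0.5 above CA1, against 2.37% of all genes. Of the 204 higher genes 0 did, and 14 (6.86%) had a CA3 level more than 0.5 below CA1, against 2.42% of all genes. Over all 9883 genes, the CA1 difference and the CA3 minus CA1 level had a Pearson r of -0.18, given as a description, since genes are not independent and these rats share platform and dissection. One of the 3 middle-aged CA3 arrays repeats the code of another animal, so its animal is unknown. Without it r was -0.13, and 7 of the 10 lower genes exceeded 0.5. The CA1 relation and these shares were not computed without good R1, whose CA1 array was low in CA1 markers.

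Markers of the pyramidal cells moved the same way. Of 12 CA3 markers 3 were lower without overlap in CA1 (Chgb, a dense-core vesicle granin, Homer3, a postsynaptic scaffold, and the adhesion protein Nectin3), beside 4.45% of genes, and the median was -0.12. Cpne4, a copine, had CA1 signals of 182, 424.5 and 305 in poor and 671, 395 and 718 in good performers, with overlap through R8 and R9. All 11 CA1 markers lay above 0 with a median of 0.16, and Etv1, an ETS transcription factor, was higher without overlap (6311, 6204 and 6140 in poor, 5051, 5410 and 5389 in good performers). Without R1 the CA1 marker median was 0.04, and the R1 array was the lowest of the 6 for 8 of 11 CA1 markers. The CA3 marker median in CA1 was -0.16 without R1, with 9 of 12 members below 0 against 10 with it. The part of the CA3 border in the CA1 differences was not tested. Middle-aged CA1 arrays spanned both classes, with Nmb at 128, 402 and 377 and Frem3 at 20.3, 289 and 153.

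**Figure D3:**
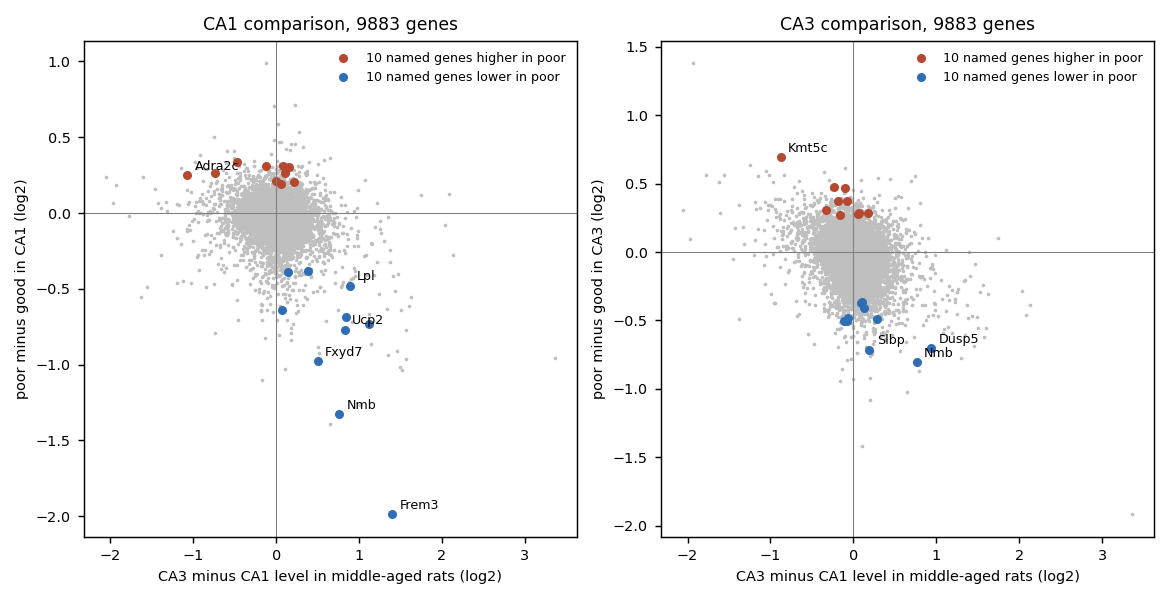
Each point is 1 of 9883 genes. The x axis is its CA3 minus CA1 log2 level in middle-aged rats. The y axis is its log2 difference, poor minus good performers, in CA1 (left) and CA3 (right), with the 10 higher and 10 lower named genes marked. The named lower CA1 genes all lie right of 0 on the x axis. Over all genes r is -0.18 in CA1 (not computed without good R1) and -0.30 in CA3 (-0.05 in CA3 without poor R8).

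CA3 had the most genes without overlap, and both directions were about equally common. Kmt5c, a methyltransferase of histone H4 lysine, had 161, 159 and 147 in poor performers and 86.2, 82.7 and 103 in good performers. Its difference was 0.69 ± 0.09 (SE, n = 3 each; limma adjusted p = 0.388), but 0.17 in the authors' table of all old arrays. Myo16, an unconventional myosin of neurons, differed by 0.47, with 508, 556 and 445 in poor and 368, 353 and 353 in good performers. Ptpro, a receptor tyrosine phosphatase, differed by 0.47, Lamb2, a laminin of basement membranes, by 0.37, and Rxrb, a retinoid X receptor, by 0.37. Hdac6, the cytoplasmic deacetylase of tubulin, had 1282, 1264 and 1278 in poor and 1073, 1009.6 and 1065 in good performers. Its difference of 0.28 was small and its classes lay well apart.

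Among the lower CA3 genes was Dusp5, a nuclear phosphatase that inactivates ERK and is itself induced by neuronal activity. It had 774, 773 and 986 in poor performers and 1273, 1412 and 1441 in good performers. The difference was -0.70 ± 0.11 (limma adjusted p = 0.388), against 0.01 in CA1. Nmb was lower in CA3 as well, with 579, 397 and 511 in poor and 917, 855 and 836 in good performers, a difference of -0.81 that lay between -0.92 and -0.66 whichever animal was left out. Slbp, which binds the stem-loop of histone mRNAs, had 321, 290.3 and 275 in poor and 596, 469 and 429.5 in good performers, a difference of -0.71. Arid1b, a subunit of BAF chromatin remodelling complexes, differed by -0.50, Casp8ap2 by -0.50, Exoc5, a subunit of the exocyst, by -0.49 and the initiation factor Eif1a by -0.41. In each of these genes the classes did not overlap.

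The CA3 differences were set against regional levels in the same way. Of the 955 lower genes, 31 (3.25%) had a middle-aged CA3 level more than 0.5 above CA1, and 0 of the 939 higher genes did. These shares stand beside 2.37% of all genes. Of the higher genes, 16 (1.7%) had a CA3 level more than 0.5 below CA1, which is under the 2.42% of all genes. Kmt5c had a CA3 level 0.87 below CA1 and Dusp5 one of 0.94 above CA1 in middle-aged rats. Over all genes, the CA3 difference and the CA3 minus CA1 level had r = -0.30 with all 6 animals, again as a description. Without R8, whose CA3 array was high in CA1 markers, that r was -0.05, so the relation rested on this animal. The differences of single genes without R8 were 0.68 for Kmt5c, -0.64 for Dusp5 and -0.70 for Slbp.

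Some large lists had more higher members in CA3 than the background of 9.5% of genes, but not in both sets of deposited signals. Poor values lay wholly above good values for 21 of 67 oxidative phosphorylation genes, 15 of 66 ribosomal protein genes, 10 of 30 proteasome genes and 5 of 18 astrocyte genes, and wholly below for 1, 0, 2 and 0. In the value table the same counts were 4 higher and 9 lower for oxidative phosphorylation, 4 and 10 for ribosomal proteins, 3 and 2 for the proteasome and 2 and 0 for astrocytes, beside 9.34% of all genes higher and 7.77% lower in that table. Of 10 genes of adult neurogenesis 4 were lower without overlap in CA3 by dChip, against 9.66% of genes, and 3 by the value table, against 7.77%. In CA1 and in DG, where newborn granule cells arise, none of these 10 genes was apart by dChip.

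In DG, Zhx2, a zinc finger and homeobox repressor, had 514, 626 and 568 in poor performers and 335, 286 and 287 in good performers. The difference was 0.88 ± 0.11 (SE, n = 3 each; 95% interval 0.61 to 1.14; limma adjusted p = 0.499), which is 1.84-fold. In CA1 the same gene was lower without overlap, with 295, 310.4 and 284 in poor and 422, 652 and 379 in good performers. Slit3, a secreted axon guidance ligand of Robo receptors, had 939.6, 944 and 992 in poor and 693, 683 and 644 in good performers, a difference of 0.50 ± 0.07. Igsf11, a synaptic adhesion molecule, differed by 0.57, Psmb7, a catalytic subunit of the proteasome, by 0.47, and Stk4, the Hippo pathway kinase MST1, by 0.40. Calcoco1 differed by 0.48 by dChip but by 0.20 in the value table. Epn1 differed by 0.94, with 259, 289.97 and 262.5 in poor and 108, 132 and 163 in good performers, but by 0.26 in the authors' table of all old arrays.

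Lower DG genes included Adcy8, a calcium-stimulated adenylyl cyclase. It had 236, 229.98 and 229.85 in poor performers and 360.1, 285 and 351 in good performers, a difference of -0.48 ± 0.11 (limma adjusted p = 0.503). Fads2, the delta-6 fatty acid desaturase, had 304, 314 and 286 in poor and 367, 398 and 388 in good performers, a difference of -0.34. Sanbr differed by -0.74, Egfl8 by -0.63, and Crlf2, the receptor subunit for thymic stromal lymphopoietin, by -0.40, of which -0.15 was seen in the table of all old arrays. Egr2, an activity-induced zinc finger factor, had 48.5, 108 and 75.2 in poor and 298, 130.01 and 134 in good R1, R9 and R10, so its difference of -1.08 was -0.72 without R1. The median over 10 AMPA and NMDA receptor genes in DG was 0.14, and 0.06 without R1, and the classes overlapped for all 10.

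On the mean of the 3 regions per animal, Nmb had the smallest p of the genes named by rule. Its log2 levels were 8.41, 8.63 and 8.68 in poor R5, R8 and R11 and 9.15, 9.19 and 9.27 in good R1, R9 and R10. The difference was -0.63 ± 0.08 (limma adjusted p = 0.825), to which CA1 and CA3 gave -1.33 and -0.81 and DG gave 0.23. Nt5e, the ecto-5′-nucleotidase CD73 that makes adenosine outside the cell, had 8.10, 8.12 and 8.09 in poor and 8.48, 8.43 and 8.39 in good performers. The Nt5e difference was -0.34 ± 0.04 (limma adjusted p = 0.825), with -0.29 in the value table, and the poor animals lay within a narrow band. The LIM homeobox factor Lhx9 (-0.33), the planar polarity protein Vangl1 (-0.27), Enox2 (-0.37) and Gclm, the modifier subunit of the enzyme that limits glutathione synthesis (-0.27), were lower too.

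Higher genes in the mean were less far apart. They included the basement membrane protein Nid1 (0.22), the linker histone H1f10 (0.20), the neuronal phosphoprotein Dpysl4 (0.20), guanine deaminase Gda (0.18), C1d (0.18) and the mitochondrial creatine kinase Ckmt1 (0.17). Camk4, a calcium/calmodulin kinase that phosphorylates CREB, differed by -0.37 ± 0.05 by dChip (limma adjusted p = 0.825) and by -0.03 in the value table, so that its difference was found in one set of signals only. Few genes were apart in every region: the classes did not overlap in CA1, CA3 and DG, with 1 direction throughout, for 2 higher genes (Tubg1 and Mapre2, which act on microtubules; 0.0202% of genes) and 4 lower genes (Resf1, Stard8, Npl and Opn3; 0.0405%). These 6 were named because of that count, and in the value table none of the 6 lay apart in all 3 regions.

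Immediate early genes, which neurons transcribe within minutes of activity, had a median of -0.07 in the mean of regions. Of 32 members 24 lay below 0, 3 were lower without overlap (Dusp5, Egr1 and Crem) and 0 higher, beside 7.38% and 5.46% of genes. Egr1 had mean log2 levels of 12.18, 12.28 and 12.03 in poor and 12.36, 12.35 and 12.30 in good performers, a difference of -0.17 ± 0.07. The list median was -0.14 without poor R8 and -0.01 without poor R11. In CA3 these 2 poor performers marked the ends of the range, R8 as the highest of the 6 animals for 18 of 32 members and R11 as the lowest for 19 of 32. Median differences of the AMPA and NMDA receptor, GABA receptor, synaptic vesicle and postsynaptic density lists in the mean of regions all lay within 0.06 of 0.

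The difference between classes was not found to depend on region for any probe set. In the fit of the 18 arrays with the animal as a random block, 0 of 18620 probe sets passed for the interaction of performance and region (0%; limma smallest adjusted p 0.101; 1371 at an unadjusted p under 0.05). Golt1b, a Golgi transport protein, and Epn1 were among the genes at that smallest adjusted p. Golt1b in CA3 had 503, 554 and 621 in poor and 825, 945 and 773 in good performers, and in DG 635, 555 and 606 in poor and 426, 512 and 436 in good performers. The classes lay apart in opposite directions, but the value table gave -0.05 in CA3 and -0.17 in DG. Epn1 differed by -0.64 in CA1 and 0.94 in DG, and its signals on the same arrays depended on the deposited table: those of the ad libitum table lay between 108 and 296, while the table of all old arrays gave 587 to 829.9 in poor and 829 to 974 in good performers in CA1. Differences in CA1 and CA3 had r = 0.20 over the 18620 probe sets, CA1 and DG 0.06, and CA3 and DG -0.07, a description in which the regions share animals.

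Restricted rats with the same class labels are other animals, measured in the authors' table of all old arrays. In CA1, Nmb had 223, 188 and 146 in restricted poor performers and 382, 356 and 677 in restricted good performers, a difference of -1.23. Frem3 in CA1 had 15.9, 19.2 and 35.4 in restricted poor and 58.4, 40.6 and 114 in restricted good performers, a difference of -1.08. Lpl in CA1 had 756, 1017 and 1008 in restricted poor and 1227, 1143 and 1376 in restricted good performers, a difference of -0.43. The 3 genes were thus lower without overlap in poor performers on both diets, as were Enox2 (-0.32) and Lamp5 (-0.18). The third restricted poor animal, R12, has CA1 and CA3 arrays that the submitters' notes mark as outliers, and without it the differences were -1.08 for Nmb, -1.29 for Frem3 and -0.50 for Lpl. Restricted CA1 poor and good arrays belong to different sets by their spiked poly-A controls, so set and class cannot be told apart there.

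Other leading genes went the opposite way or overlapped in restricted rats. In CA1, Epn1 (0.97) and Ucp2 (0.35) were positive and Csrnp3, a nuclear protein of neurons, negative (-0.72). Fn3k was negative too (-0.16), and in each of these genes the restricted classes did not overlap. With overlap, Fxyd7 (0.31) and Emp3 (0.04) were positive and Cadps2 (-0.33), Ttc22 (-0.24), Abat (-0.06) and Rnf41 (-0.02) negative. All of these signs were opposite to those in ad libitum rats, and the remaining CA1 genes of the naming rule kept their sign. In CA3 the restricted differences were 1.02 for Arid1b and 0.48 for Slbp, against -0.50 and -0.71 in ad libitum rats, but both rested mainly on restricted poor R12 and were 0.34 and 0.23 without it. Its Arid1b signal in CA3 was 3365, against 820 and 793 in the other restricted poor and 592 to 691 in the restricted good performers. In DG, Slit3 (1.14), Sanbr (-0.97) and Fads2 (-0.48) kept the direction without overlap, while Zhx2 differed by -0.04. The description of 1 restricted good DG array, R3, reads poor performer, and it was grouped by its title. Without that array the DG differences were 1.13 for Slit3, -1.06 for Sanbr and -0.54 for Fads2. Of the 440 genes lower without overlap in ad libitum CA1, 140 (31.8%) were so in restricted rats, beside 25.1% of all genes. The same shares were 7.75% beside 11% for lower genes in CA3, 1.49% beside 6.64% for higher genes in CA3, and 19.6% beside 9.58% for lower genes in DG (28.9% beside 15.3% without R3, where fewer animals overlap less often). Over all genes the ad libitum and restricted differences had r = 0.07 in CA1, -0.24 in CA3 and -0.04 in DG, as descriptions. These shares and r set ad libitum values of the ad libitum table beside restricted values of the table of all old arrays. With both taken from the table of all old arrays, r over probe sets was 0.07 in CA1, -0.28 in CA3 and 0.07 in DG.

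**Figure D4:**
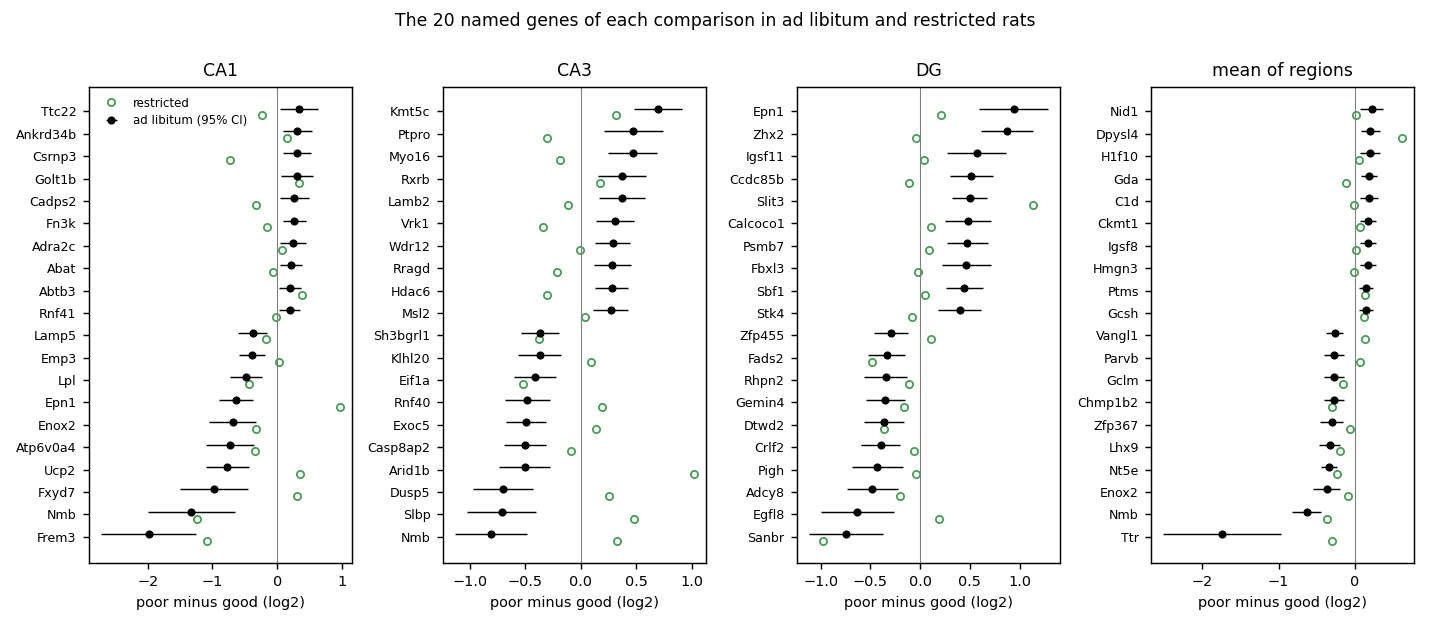
Log2 difference, poor minus good performers, of the 20 named genes of each comparison, with filled points and 95% intervals for ad libitum rats and open circles for restricted rats (3 poor and 3 good animals on each diet). Ad libitum values are from the ad libitum table and restricted values from the table of all old arrays. In CA1 the restricted value of Nmb (-1.23) lies on the same side of 0 as the ad libitum value (-1.33); in CA3 the restricted value of Arid1b (1.02, or 0.34 without restricted poor R12) lies on the other side.

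The test of whether the class difference depended on diet passed for 122 of 18620 probe sets in CA1 (0.655%; limma, adjusted p under 0.05), with 99 positive and 23 negative terms, and for 0 in CA3, DG and the mean of regions (0% called in each). The CA1 count was 2 in the value table, 1 without the restricted good performer of replicate 1 and 570 without restricted poor R12. It was 10 to 77 without any other animal, except 98 without the restricted good performer of replicate 3. Of the 20 CA1 genes of the naming rule 3 passed it: Epn1 (term 1.25, limma adjusted p = 0.0211), Ucp2 (1.10, adjusted p = 0.031) and Csrnp3 (-1.01, adjusted p = 0.0412). These 3 are among the CA1 genes whose restricted difference had the opposite sign above. The 20 genes were chosen for their ad libitum CA1 difference, which enters the term. The count of 3 is therefore not independent of that choice. For Nmb in CA1 the differences were -1.23 in restricted and -1.33 in ad libitum rats. That the term did not pass does not show that the differences are alike, with 3 animals a group.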

How the data were processed

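RNA of dissected CA1, CA3 and DG was measured on Affymetrix RAE 230 2.0 arrays (31099 probe sets), 1 array per region and animal. The authors deposited dChip signal values on a linear scale with a detection call (other unit: present, absent or marginal) for each probe set, in 1 table of all ad libitum arrays, 1 of all old arrays and 1 per region. They also deposited the value table, a further linear signal for each array whose software no label names. Per the deposited array descriptors, age arrays were normalized per region and diet arrays together, while the tables are laid out the other way round. How well these steps equalized the arrays cannot be read from the files.

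Signals were raised by 16, taken to log2 and kept above the 40th percentile of the mean, which left 18620 probe sets. Poor and good performers were compared with limma 3.58.1 (R 4.3.3), two-sided, with Benjamini-Hochberg adjustment over all of these, per region and on each animal's mean of 3 regions. The interaction with region used 18 arrays with the animal as a random block, and that with diet used the table of all old arrays. Array quality measures were compared by the exact permutation test. Nothing in the labels says whether the animals were tested or dissected together, and the number of arrays limits the precision of every value. The tests were checked on simulated data.

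Of the 31099 probe sets, 18317 took 1 gene symbol through a gene ID in the RefSeq table of GRCr8, 687 had several genes and 11578 none. The brightest probe set stood for a gene. Named genes were, per comparison and direction, up to 10 of smallest p whose classes did not overlap in either set of signals, with the same sign in both and with present calls on at least 3 of 6 arrays (9 of 18 for the mean), and from each of 40 lists the 3 members of smallest p. Other members are named to complete a count. The members and lists were chosen with earlier results of these data known. Alternatives were the other deposited signals, the pseudocount, the filter, quantile normalization, the variance model, the fit with middle-aged arrays and leaving out each animal. The authors' lists of changed probe sets hold no comparison of poor and good performers and were not used here.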

Additional observations from a re-analysis of the deposited data

Results flagged for a closer look

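The test of whether the difference between poor and good performers depended on diet passed for 122 probe sets in CA1 (limma, adjusted p under 0.05; the term is poor minus good in restricted rats minus the same in ad libitum rats). In restricted CA1, class and array set cannot be told apart, and the count was far smaller in the value table, as given above. The 10 genes of smallest p were Stard8 (2.28), Csf1 (1.25), Dolk (1.28), Kcnj5 (1.27), Slc45a3 (0.87), Med19 (0.83), Ccdc65 (-2.11), Kalrn (1.03), Isoc2b (1.14) and Begain (1.57). Restricted differences were large and ad libitum ones small: 1.17 and -0.07 for Csf1, the growth factor of microglia and macrophages, 1.28 and 0.03 for Dolk, dolichol kinase, and -2.13 and 0.00 for Ccdc65, a ciliary protein. In Slc45a3 and Begain no ad libitum CA1 array had a present call.

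Ccdc65 was low in other restricted arrays too. In CA1 its signal was 73.7 to 88.5 in restricted poor and 275 to 498 in restricted good performers, and 465 to 574 in ad libitum poor and 514 to 537 in ad libitum good performers. In DG it was 74.5 to 89.2 in restricted poor and 97.1 to 106 in restricted good performers, against 461 to 548 in ad libitum poor and 471 to 531 in ad libitum good performers. In CA3 it was 86.7, 75.8 and 358 in restricted poor performers, the last in R12, and 90.0 to 157 in restricted good performers, so the classes overlapped. Ad libitum CA3 signals were 420 to 511 in poor and 434 to 517 in good performers. The restricted CA1 classes lie in different sets by their poly-A controls, so set and class cannot be told apart there.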

How the results depend on the processing

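The count of probe sets past the threshold stayed 0 for poor against good performers in CA1, CA3, DG and the mean of regions under every alternative run, leaving out each animal included. Unadjusted counts (p under 0.05) ran from 381 to 1141 in CA1, 1158 to 2572 in CA3, 761 to 2348 in DG and 671 to 1593 in the mean. The title numbers were not taken to pair the samples. Same-numbered poor and good arrays had residual correlations averaging -0.09 in CA1, 0.09 in CA3 and 0.21 in DG, against 0.04, -0.03 and -0.10 for differently numbered ones. With 3, 2 and 3 same-numbered pairs, these averages cannot tell whether the number paired the samples. With the number as a replicate block, 9 probe sets passed for performance by region, 11 for diet by performance in CA1 and 2 in CA3, and 0 for the 4 class comparisons. Diet by performance in CA1 gave 2 in the value table and 53 without the filter on low values. Leaving out 1 animal gave 1 to 570 in CA1, 0 to 172 in CA3 (172 without restricted poor R12, 42 without ad libitum poor R11), 0 to 3 in DG and 0 to 3 in the mean of regions. Of 1500 values for 131 pairs of gene and comparison, 6 changed sign, but 108 of the 131 were pairs whose classes did not overlap, which leaving out an animal cannot turn. Without good R1, 3 of 15 MHC genes lay below 0 in the mean, against 15 with it. Grin2b in the mean gave -0.0137 in the value table and -0.0144 with CA1 and CA3 only, and Igf1 in the mean gave 0.0610 with CA1 and CA3 only. Leaving out 1 animal gave -0.0275 to 0.332 for Vim in CA3, -1.96 to 0.18 for Col3a1 in DG and -0.971 to 0.00947 for C2 in the mean, with the sign changed without poor R11 for Vim and without good R1 for the others. Of the list medians, 1024 moved by less than the spread between animals and 78 by more. The cause was not tested. Leaving out restricted poor R12 or restricted good R3 from restricted differences, poor R8 from the relation to regional levels, or the middle-aged CA3 array of unknown animal was chosen after seeing the data. With 3 animals a class, differences under about 1.17-fold in CA1 or CA3 were not detectable for a typical gene even before adjustment.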
